A study of Mus musculus with 50 samples.

Results

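The hearts of 14-month-old wild-type FVB mice were set against those of 4-month-old FVB mice, 5 female mice at each age, chosen by the age in their labels. These 10 hearts belong to a series of 50, in which FVB mice and Tgαq*44 mice, an FVB line that carries an active Gαq protein in its cardiomyocytes and develops heart failure, were sampled at 4, 8, 10, 12 and 14 months. RNA was taken from the apex of the left ventricle, polyA-selected and sequenced, and reads were counted per gene. The 14-month-old FVB mice, and the 4-month-old FVB mice they are compared with, carried no transgene, and all were kept free of pathogens on chow in a cycle of light and dark. The labels give 5 separate mice per age, and neither the litter, the hour of sampling nor the sequencing run of a mouse is given in the sources used here. FVB hearts of 8, 10 and 12 months (15 mice) were used to ask which differences were particular to 14 months, and 10 Tgαq*44 hearts of 14 and 4 months to ask whether the change differed between the strains.

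In the ageing heart, cardiomyocytes are long-lived and seldom divide, while fibroblasts, endothelial cells and resident immune cells surround them. Interferons switch on a broad set of genes, among them the MHC genes that show peptides to T cells: class I chains carry peptides from inside the cell, class II chains those taken up from outside. Glucocorticoids act through a nuclear receptor that binds DNA and raises genes such as Fkbp5, a brake on the receptor itself. Heat shock factor raises chaperones when proteins unfold. Beat by beat, calcium enters cardiomyocytes through the channel Cacna1c, is released from the sarcoplasmic reticulum through Ryr2 and is pumped back by Atp2a2.

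The total count per library was 9479003 to 21601942 at 14 months and 9772096 to 15920877 at 4 months. The apex carried its ventricular markers in every library: the 12 cardiomyocyte markers summed to 76411 to 93973 CPM at 14 months and 75317 to 113848 CPM at 4 months. Mitochondrially encoded genes took 19.6 to 26.1% of counts at 14 months and 19.5 to 28.8% at 4 months. The rRNA share and the TMM factor, which scales each library for its composition, differed without overlap. Ribosomal RNA, nearly all of it counted on 1 locus (CT010467.1, chromosome 17, 39846353 to 39848827, minus strand, GRCm38), took 0.710 ± 0.121% of counts (SD, n = 5; 0.565 to 0.90%) at 14 months and 2.15 ± 0.577% (SD, n = 5; 1.5 to 2.89%) at 4 months, with an exact permutation p of 0.007937, the smallest that 5 against 5 mice allow (0.0238 adjusted over 6 library measures). The TMM factor was 0.981 ± 0.024 at 14 months and 0.906 ± 0.021 at 4 months (SD, n = 5 each; exact permutation p = 0.007937). The share was 0.947 to 1.79% at 8 months, 0.438 to 1.27% at 10 months and 0.50 to 3.95% at 12 months, so that the range at 14 months lay within that at 10 months. Because this share moves with the comparison, 2 further fits are given beside results: one with the log2 share as a covariate over all 50 mice, named where it ended a call, and the comparison of 14 with 10 months. Both were chosen after the data were seen. The part of the share in the results was not tested further.

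Of 54532 genes in the count table, 15129 reached a level above 0.5 CPM (read counts scaled to the size of the library) in at least 1 group, in more than 3 of its mice, and were tested. Between 14 and 4 months, 847 genes, 5.60% of those tested, were differentially expressed (DEGs, absolute log2 fold change over 1 and adjusted p under 0.05, edgeR), 434 higher (2.87%) and 413 lower (2.73%). Without the fold limit, 3474 genes (23.0%) passed, 1647 higher (10.9%) and 1827 lower (12.1%). In 2007 genes (13.3%) the 5 values at 14 months lay wholly above (5.39%) or wholly below (7.88%) the 5 values at 4 months. Against the mean of 8, 10 and 12 months, 978 genes (6.46%) passed the adjusted p, 2.51% higher and 3.95% lower. Against 10 months alone 45 genes (0.297%) passed, 0.145% higher and 0.152% lower, beside 1351 at an unadjusted p under 0.05. With the rRNA share in the model 4.44% of genes were DEGs (2.66% higher, 1.78% lower), and 17.5% passed the adjusted p alone (8.39% higher, 9.06% lower). Of the 434 higher DEGs, 300 remained DEGs in that model, and of the 413 lower DEGs, 212. Longer genes were relatively lower at 14 months: across 13371 protein-coding genes, the Spearman correlation of the log2 fold change with exon length was -0.18. Genes are not independent replicates, and this value is a description. Throughout, CPM values are given for mice 1 to 5 of an age in that order. The ± after a log2 fold change is its standard error, and adjusted p-values are from edgeR. Counts of list members called against 4 months are to be read beside the 10.9% of all genes called higher and 12.1% called lower. In bulk tissue, fewer cells of a type and less RNA per cell cannot be told apart.

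**Figure D1:**
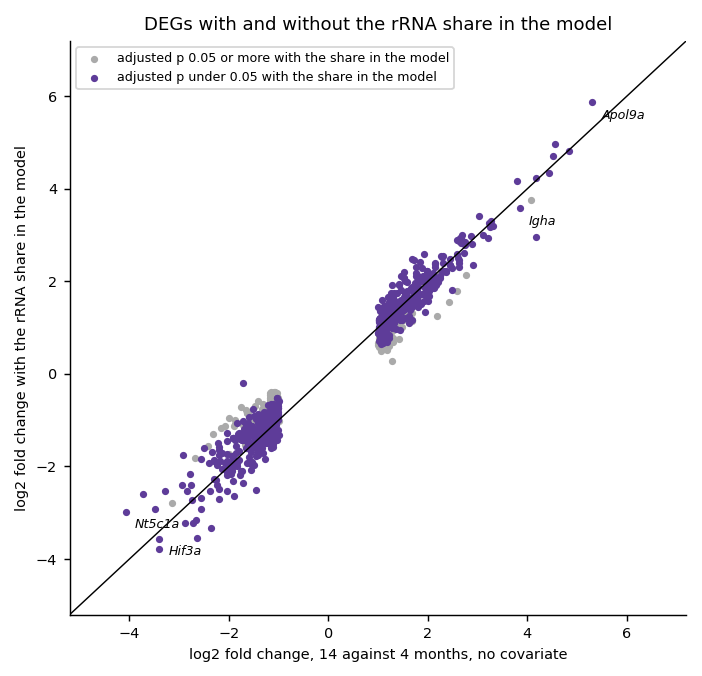
Log2 fold change of the 847 DEGs at 14 against 4 months without (x axis) and with (y axis) the log2 rRNA share of each library in the model. Each point is a gene, the line marks equal values, and grey points lost the adjusted p. Of the 413 lower DEGs, in the bottom left, 212 remained DEGs with the share in the model, and of the 434 higher DEGs, in the top right, 300.

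Sequences just before the start of 7 genes that follow are shown because their groups moved together. Only genes with a match in the window were shown. They are from RefSeq (GRCm38.p6), 150 bases up to the base before the start, 5′ to 3′ on the strand of the gene. Capitals in the first 4 mark GAAA, any 2 bases, GAAA on either strand, the core of the interferon-stimulated response element; overlapping matches run together.
Igtp, chr11:58199406-58199555, plus strand: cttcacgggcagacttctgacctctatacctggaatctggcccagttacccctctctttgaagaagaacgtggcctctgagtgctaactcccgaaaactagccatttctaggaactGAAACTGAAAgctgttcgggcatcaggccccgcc
Irgm2, chr11:58214827-58214976, plus strand: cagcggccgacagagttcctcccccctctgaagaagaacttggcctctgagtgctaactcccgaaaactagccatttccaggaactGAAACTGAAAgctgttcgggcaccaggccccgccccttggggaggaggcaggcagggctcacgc
Ifit1, chr19:34640739-34640888, plus strand: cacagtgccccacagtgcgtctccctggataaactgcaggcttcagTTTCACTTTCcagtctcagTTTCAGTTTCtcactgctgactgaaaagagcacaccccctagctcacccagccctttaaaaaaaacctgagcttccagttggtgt
Apol9a, chr15:77411081-77411230, minus strand: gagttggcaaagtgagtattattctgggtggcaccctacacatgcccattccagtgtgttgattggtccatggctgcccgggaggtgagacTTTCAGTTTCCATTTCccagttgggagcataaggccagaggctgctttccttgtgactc
The same letters, in the 300-base windows from 250 bases before to 50 after the start, occurred in 19 of 31 interferon-response genes with a promoter in the table (61.3%), 11 of them higher at 14 months, and in 3.99% of all 27025 promoters. They occurred in 1 of 7 class II genes (14.3%) and 5 of 17 class I genes (29.4%) with a promoter. In the next 2, capitals mark GAA, any 2 bases, TTC, a core of the heat shock element.
Hspa1b, chr17:34959239-34959388, minus strand: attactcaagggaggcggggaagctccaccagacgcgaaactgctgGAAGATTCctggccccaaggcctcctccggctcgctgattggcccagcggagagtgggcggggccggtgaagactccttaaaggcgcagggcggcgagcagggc
Hspb1, chr5:135887769-135887918, plus strand: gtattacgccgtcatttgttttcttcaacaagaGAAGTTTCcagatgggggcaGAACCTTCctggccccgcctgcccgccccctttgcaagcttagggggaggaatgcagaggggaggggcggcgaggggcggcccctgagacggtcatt
That core was found in 12 of 16 heat shock genes with a promoter (75%), 7 of them higher, and in 9.04% of all promoters. The last sequence carries, in capitals, a glucocorticoid response element, AGAACA, any 3 bases, TGT, any base, C, which here lies on the other strand.
Fam107a, chr14:8309780-8309929, minus strand: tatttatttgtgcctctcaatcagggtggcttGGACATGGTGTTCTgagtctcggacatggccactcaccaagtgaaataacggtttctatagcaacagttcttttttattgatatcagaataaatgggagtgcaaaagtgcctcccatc
It was found in 3 of 27 genes of the glucocorticoid list (11.1%), 1 of them lower, and in 0.155% of all promoters. A match is a description of letters and not a measured site. In the whole lists, 24 of 41 interferon-response and 11 of 20 heat shock genes were higher, and 19 of 32 glucocorticoid genes lower. Whether genes with a match changed more than the others of their list was not tested.

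The genes with the largest changes, by a fixed rule of size and no overlap, came from several groups. Aqp8, a water channel, was at 13.3, 15.5, 11.96, 10.9 and 16.6 CPM at 14 months, against 2.78, 3.11, 1.68, 2.39 and 0.521 CPM at 4 months (log2 fold change 2.67 ± 0.31, adjusted p = 6.1e-09). Spon2, a matrix protein that binds microbes, was at 9.78, 14.8, 11.3, 8.58 and 16.03 CPM at 14 months, against 2.67, 2.09, 1.5, 0.773 and 2.92 CPM at 4 months (log2 fold change 2.66 ± 0.45, adjusted p = 1.1e-05). Ccl8, a monocyte chemokine, was at 3.89, 5.78, 6.28, 9.22 and 8.72 CPM at 14 months, against 2.22, 0.675, 0.467, 0.913 and 0.417 CPM at 4 months (log2 fold change 2.89 ± 0.51, adjusted p = 2.3e-05). In these 3 every 14-month-old mouse was above every 4-month-old mouse, as the rule requires. Here and below, no overlap in genes named by this rule is a condition of their choice and no further result. Sstr4, a somatostatin receptor, was at 0.167, 0.263, 0.454, 0.214 and 0.242 CPM at 14 months, against 1.89, 2.57, 1.22, 2.25 and 2.29 CPM at 4 months (log2 fold change -2.93 ± 0.47, adjusted p = 4.2e-06). Ucn, a peptide of the corticotropin-releasing family, was at 0.167, 0.525, 0.151, 0.536 and 0.339 CPM at 14 months, against 2.67, 2.03, 1.22, 2.6 and 1.04 CPM at 4 months (log2 fold change -2.55 ± 0.37, adjusted p = 9.6e-07). These were lower in every 14-month-old mouse. Lvrn, an aminopeptidase, was lower too (log2 fold change -2.38 ± 0.52, adjusted p = 0.00047). So was Angptl7, a secreted angiopoietin-like protein (log2 fold change -2.24 ± 0.35, adjusted p = 3.4e-06). Among abundant DEGs, Actb, the cytoskeletal actin, was at 1455, 2120, 1031, 1237 and 1675 CPM at 14 months, against 501, 523, 290.2, 356 and 624 CPM at 4 months (log2 fold change 1.71 ± 0.26, adjusted p = 1.4e-06). Ly6e, a surface protein raised by interferon, was at 348, 344, 308, 359 and 477 CPM at 14 months, against 167, 161, 116, 155 and 259 CPM at 4 months (log2 fold change 1.1 ± 0.19, adjusted p = 2.2e-05). Abundant DEGs that fell were Tacc2, Zfp106, Adgrf5, Tead1, 2610507B11Rik and Mt1, at log2 fold changes of -1.02, -1.29, -1.18, -1.08, -1.65 and -1.49, with the highest adjusted p in Mt1 (5e-05). Tead1 encodes a transcription factor of the Hippo pathway and Mt1 a metal-binding protein.

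Antigen presentation and interferon-response genes stood higher at 14 months. All 10 tested class II genes of 12 in the list passed the test and rose, with a median log2 fold change of 1.59 beside 0.03 over all genes, where 10.9% of genes were called higher. Of the 20 class I genes 16 rose, and of 41 tested interferon-response genes 24 rose; none of either list fell. By role, the 9 class I chains, 7 of 10 genes of peptide supply and loading, 7 of 13 interferon-induced GTPases, 13 of 18 antiviral effectors and 4 of 10 signalling genes rose. Set against the mean of 8, 10 and 12 months, 4 class II, 4 class I and 3 interferon-response genes were higher. Against 10 months, where only 0.145% of all genes were called higher, none of the 3 lists had a gene called. The medians against 10 months were 0.57 for class II, 0.27 for class I and 0.12 for interferon-response genes.

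Cd74, the invariant chain of class II, had a log2 fold change of 1.67 (adjusted p = 2.8e-05). H2-Ab1, a class II chain, was at 18.9, 43.95, 37.5, 49.4 and 61.9 CPM at 14 months, against 20.7, 8.91, 6.26, 8.22 and 17.1 CPM at 4 months (log2 fold change 1.81 ± 0.34, adjusted p = 6.1e-05). H2-DMb1, which loads peptides onto class II, was at 0.389, 1.58, 0.984, 2.25 and 2.62 CPM at 14 months, against 0.667, 0.135, 0.467, 0.141 and 0.104 CPM at 4 months (log2 fold change 2.44 ± 0.48, adjusted p = 0.00013). Ciita, the transactivator of class II genes, was at 2.28, 5.6, 6.36, 6.11 and 5.91 CPM at 14 months, against 2.78, 1.69, 1.59, 1.9 and 1.15 CPM at 4 months (log2 fold change 1.52 ± 0.36, adjusted p = 0.0014). In these last 3 genes, mouse 1 was the lowest at 14 months and lay below mouse 1 of 4 months, the highest of its age, while mice 2 to 5 of the 2 ages did not overlap. Among class I genes, H2-K1 was at 172, 358, 309, 369 and 482 CPM at 14 months, against 197, 86.8, 72.3, 94.4 and 119 CPM at 4 months (log2 fold change 1.57 ± 0.28, adjusted p = 3e-05). The light chain B2m was at 758, 1104, 1189, 2001 and 1644 CPM at 14 months, against 719, 335, 496, 606 and 572 CPM at 4 months (log2 fold change 1.29 ± 0.24, adjusted p = 5e-05). Psmb8, a subunit of the immunoproteasome that cuts peptides for class I, was at 4.5, 3.68, 5.52, 4.5 and 6.05 CPM at 14 months, against 1.78, 1.89, 1.59, 1.83 and 1.88 CPM at 4 months (log2 fold change 1.44 ± 0.28, adjusted p = 0.00011). Psmb8 did not overlap between the ages and had no mouse 1 pattern. Nlrc5, the class I transactivator, did not pass the test, with 4.33, 10.1, 12.8, 11.9 and 13.4 CPM at 14 months, against 18.1, 4.25, 5.14, 10.8 and 5.53 CPM at 4 months (log2 fold change 0.27 ± 0.50, adjusted p = 0.75).

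The interferon-induced GTPases attack the vacuoles of pathogens. Igtp was at 23.6, 145, 216, 144 and 225 CPM at 14 months, against 42.4, 11.9, 11.2, 13.8 and 14.5 CPM at 4 months (log2 fold change 3.02 ± 0.64, adjusted p = 0.0003). Irgm2 was at 31.2, 113, 210.5, 166 and 186 CPM at 14 months, against 60.4, 17.7, 19.2, 26.2 and 24.4 CPM at 4 months (log2 fold change 2.27 ± 0.51, adjusted p = 0.00071). In both genes mice 2 to 5 of 14 months were above every 4-month-old mouse, while 14-month-old mouse 1 was below 4-month-old mouse 1. Ifit1, an antiviral effector, was at 3.33, 3.5, 7.49, 5.79 and 4.12 CPM at 14 months, against 0.778, 1.28, 1.12, 1.26 and 0.73 CPM at 4 months (log2 fold change 2.16 ± 0.35, adjusted p = 5.2e-06) and did not overlap between the ages. The change was not shared by the whole list: Isg15, a ubiquitin-like antiviral protein, was at 0.889, 1.23, 1.21, 1.07 and 1.26 CPM at 14 months, against 1.33, 0.743, 0.467, 0.562 and 0.938 CPM at 4 months (log2 fold change 0.52 ± 0.38, adjusted p = 0.36). Rsad2, which makes an antiviral nucleotide, was at 11.3, 6.66, 6.51, 7.18 and 6.73 CPM at 14 months, against 15.6, 7.76, 7.85, 7.94 and 7.4 CPM at 4 months (log2 fold change -0.26 ± 0.28, adjusted p = 0.56). Rsad2 was highest in mouse 1 of both ages. Mouse 1 of 14 months also had the highest haemoglobin share, 0.307% of counts against 0.0528 to 0.105% in mice 2 to 5; its part in these values was not tested. Without mouse 1 of both ages, an alternative chosen after the data were seen, 10 class II, 16 class I and 25 interferon-response genes rose. Near-identical copies can share reads in the H2 and GTPase families, so the split between their members is uncertain.

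Apol9a, an apolipoprotein L that rises with interferon in mice, had the highest fitted fold among the genes named by rule. It was at 0.389, 3.77, 3.25, 1.72 and 2.91 CPM at 14 months, against 0.111, 0, 0, 0.0703 and 0.104 CPM at 4 months. Its reads summed to 169 at 14 months and to 3 at 4 months, a ratio of 45.3 (95% exact counting interval 15.2 to 222, which covers counting error only). The adjusted p was 1.3e-06. Its near copy Apol9b can share its reads. It was also higher than at 10 months (log2 fold change 2.18 ± 0.51, adjusted p = 0.035) and than the mean of the middle ages (log2 fold change 2.28 ± 0.39, adjusted p = 0.00013).

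**Figure D2:**
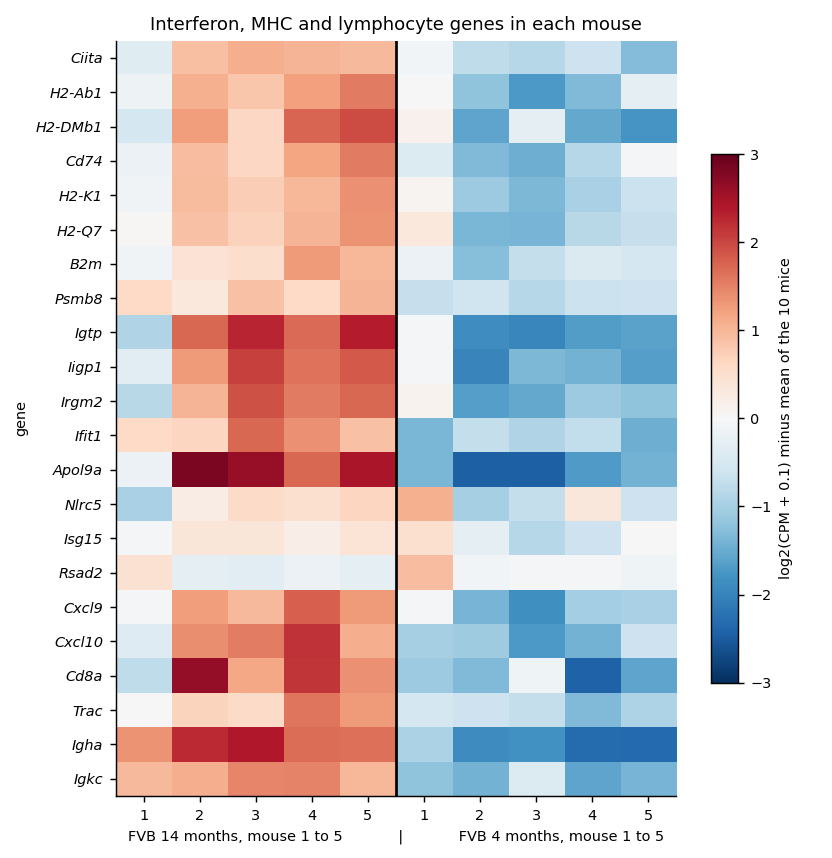
Level of 22 interferon, MHC and lymphocyte genes in each mouse, as log2(CPM + 0.1) minus the mean of the 10 mice (colour; red is higher). Mouse 1 of 14 months is bluer than mice 2 to 5 in genes such as Igtp (23.6 CPM in mouse 1) and Ciita, and mouse 1 of 4 months is redder than its age mates in the same genes (Igtp 42.4 CPM).

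Signals that draw immune cells were higher, and markers of cytotoxic and antibody-producing cells with them. Of 30 tested chemokines and cytokines 15 rose and 1 fell, with a median of 0.97. Ccl7, which draws monocytes, was at 1.56, 1.66, 2.5, 3.54 and 1.74 CPM at 14 months, against 0.111, 0.203, 0.28, 0.141 and 0.417 CPM at 4 months (log2 fold change 3.21 ± 0.45, adjusted p = 4.7e-07). Cxcl10, which draws T cells through the receptor Cxcr3, was at 0.389, 1.58, 1.74, 2.79 and 1.26 CPM at 14 months, against 0.222, 0.203, 0.0935, 0.141 and 0.313 CPM at 4 months (log2 fold change 2.90 ± 0.66, adjusted p = 0.00082). Cxcr3 itself was at 0.945, 2.8, 2.5, 2.36 and 3.39 CPM at 14 months, against 0.667, 0.405, 0.187, 0.281 and 0.417 CPM at 4 months (log2 fold change 2.63 ± 0.42, adjusted p = 5.1e-06). All 3 were without overlap. Il1b, an inflammatory cytokine, was at 1.5, 1.31, 1.44, 3.11 and 1.74 CPM at 14 months, against 0.111, 0.203, 0.0935, 0.562 and 0.104 CPM at 4 months (log2 fold change 2.87 ± 0.49, adjusted p = 1.6e-05). Tnf, another, was at 1.33, 2.19, 1.21, 0.858 and 2.86 CPM at 14 months, against 0.111, 0.135, 0, 0.0703 and 0.625 CPM at 4 months (log2 fold change 3.27 ± 0.57, adjusted p = 1.7e-05). Cxcl12, which retains stem cells and lymphocytes, was the 1 that fell: 365, 238, 371, 289.9 and 191 CPM at 14 months, against 477, 555, 353, 423 and 662 CPM at 4 months (log2 fold change -0.77 ± 0.16, adjusted p = 0.00037), and it missed the threshold with the rRNA share in the model (adjusted p = 0.059). Several of these genes have few reads, Tnf 132 at 14 months and 10 at 4 months, Il1b 126 and 14.

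Of 11 tested markers of T cells and NK cells (15 in the list) 9 rose, with a median of 1.93. Cd8a, the co-receptor of cytotoxic T cells, was at 0.445, 5.6, 1.97, 3.97 and 2.28 CPM at 14 months, against 0.333, 0.27, 0.748, 0.0703 and 0.208 CPM at 4 months (log2 fold change 3.10 ± 0.60, adjusted p = 9.5e-05). Trac, the constant part of the T cell receptor, was at 0.667, 1.14, 1.06, 2.25 and 1.79 CPM at 14 months, against 0.444, 0.405, 0.374, 0.211 and 0.313 CPM at 4 months (log2 fold change 1.95 ± 0.42, adjusted p = 0.00039). Cd4, the co-receptor of helper T cells, was at 0.778, 0.963, 1.21, 2.68 and 1.16 CPM at 14 months, against 0.889, 1.15, 0.374, 0.703 and 1.04 CPM at 4 months and did not pass the test (log2 fold change 0.63 ± 0.30, adjusted p = 0.13). Mouse 1 of 14 months was again the lowest for Cd8a and Trac, and its Cd8a lay among the 4-month-old values. The summed level of the list was 9.95 to 39.03 CPM at 14 months and 6.39 to 12.6 CPM at 4 months. Relative to the middle ages 8 of the 11 markers were higher, with 2.51% of all genes called, and against 10 months 2 were, with 0.145% called. Gzmb, a killing protease of these cells, was at 0.0556, 1.75, 1.44, 0.643 and 2.76 CPM at 14 months, against 0.444, 0.0675, 0.28, 0.281 and 0.417 CPM at 4 months (log2 fold change 2.26 ± 0.63, adjusted p = 0.0059) and lost its call under limma-voom (log2 fold change 1.53, adjusted p = 0.13), without 14-month-old mouse 5 (adjusted p = 0.061) and with the rRNA share in the model (log2 fold change 2.22, adjusted p = 0.053).

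Plasma cell transcripts rose. Igha, the constant region of IgA, was at 9.22, 17.1, 19, 11.5 and 11.4 CPM at 14 months, against 1.78, 0.878, 0.935, 0.632 and 0.625 CPM at 4 months (log2 fold change 3.85 ± 0.70, adjusted p = 4.2e-05). Jchain, which joins IgA into dimers, was at 4.45, 4.64, 5.45, 3.86 and 1.99 CPM at 14 months, against 0.444, 0.743, 0.935, 0.281 and 0.521 CPM at 4 months (log2 fold change 2.77 ± 0.77, adjusted p = 0.0057). Igkc, the kappa light chain, was at 7.5, 8.05, 10.4, 10.7 and 7.55 CPM at 14 months, against 1.55, 1.35, 2.8, 1.2 and 1.35 CPM at 4 months (log2 fold change 2.43 ± 0.80, adjusted p = 0.023). In all 3 the ages did not overlap, and with the rRNA share in the model only Igha kept its call (adjusted p = 0.1 for Jchain and 0.27 for Igkc). Igkc also lost it without 4-month-old mouse 2 (adjusted p = 0.051) or mouse 4 (adjusted p = 0.057). Of the 7 tested B and plasma cell markers these 3 rose and the other 4 did not pass. Immunoglobulin genes share sequence, so that reads can be counted on a wrong member.

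Macrophage markers changed unevenly, 6 of 14 rising and none falling, with a summed level of 195 to 229 CPM at 14 months and 139 to 194 CPM at 4 months. Fcgr1, an Fc receptor, was at 2.06, 2.89, 3.94, 3.54 and 3.49 CPM at 14 months, against 1.22, 1.62, 0.654, 0.562 and 1.15 CPM at 4 months (log2 fold change 1.59 ± 0.27, adjusted p = 1.1e-05). Cd163, the scavenger receptor of resident macrophages, was at 5.83, 4.64, 4.09, 4.4 and 3.1 CPM at 14 months, against 7.78, 4.997, 7.01, 6.54 and 5.53 CPM at 4 months (log2 fold change -0.53 ± 0.20, adjusted p = 0.052), just missing the threshold, and passed it under 8 alternatives (adjusted p = 0.021 to 0.0495), among them DESeq2 (0.041). The number of macrophage markers higher was 3 without 14-month-old mouse 5 and without 4-month-old mouse 3. Complement, which tags targets for macrophages, had 11 of 19 tested genes higher: C4b of the classical pathway was at 37.2, 46.7, 40.9, 37.96 and 49.6 CPM at 14 months, against 12.3, 12.9, 8.32, 9.06 and 11.4 CPM at 4 months (log2 fold change 1.98 ± 0.22, adjusted p = 2.6e-09). C3, where the pathways meet, was at 267, 280.1, 345, 335 and 372 CPM at 14 months, against 143, 153, 177, 147 and 160.2 CPM at 4 months (log2 fold change 1.03 ± 0.19, adjusted p = 5.7e-05). Neither overlapped between the ages. Xcr1, a marker of the dendritic cells that present to CD8 T cells, was at 0.722, 1.4, 0.984, 1.93 and 1.79 CPM at 14 months, against 0.778, 0.203, 0.187, 0.0703 and 0.417 CPM at 4 months (log2 fold change 2.14 ± 0.49, adjusted p = 0.00087).

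Chaperones were higher at 14 months. Of 20 heat shock genes 11 rose and none fell, and against the mean of 8, 10 and 12 months 10 rose. Against 10 months alone 2 of the 20 were higher, Hsph1 and Hspa1a. Hspa1b, the inducible HSP70, was at 2.11, 15.4, 5.75, 3.43 and 2.37 CPM at 14 months, against 0.222, 0.338, 0.28, 0.843 and 1.15 CPM at 4 months (log2 fold change 3.31 ± 0.85, adjusted p = 0.0028), with its highest value in mouse 2. Hspa1a, its near-identical neighbour, whose upstream window equals that of Hspa1b at 149 of 150 bases, was at 1.83, 14.6, 9.46, 2.15 and 1.02 CPM at 14 months, against 0.222, 0.203, 1.31, 0.562 and 0.73 CPM at 4 months (log2 fold change 3.25 ± 0.84, adjusted p = 0.0032). Both were highest in mouse 2 of 14 months, and reads of the pair cannot be assigned with certainty. Hsph1, which works with HSP70, was at 37.2, 60.3, 47.5, 31.7 and 27.4 CPM at 14 months, against 17.2, 16.9, 19.4, 16.9 and 20.2 CPM at 4 months (log2 fold change 1.17 ± 0.20, adjusted p = 1e-05) and was higher than at 10 months too (log2 fold change 0.96 ± 0.19, adjusted p = 0.0096). Hsp90aa1, the inducible HSP90, was at 67.8, 82.6, 87.4, 75.4 and 44.3 CPM at 14 months, against 28.2, 25.4, 48.7, 38.9 and 26.8 CPM at 4 months (log2 fold change 1.09 ± 0.19, adjusted p = 2.2e-05). Not all chaperones followed. Hspd1, the mitochondrial chaperonin, did not pass: 97.5, 109, 115, 78.9 and 68.3 CPM at 14 months, against 114, 89.9, 117, 85.5 and 55.1 CPM at 4 months (log2 fold change 0.02 ± 0.14, adjusted p = 0.93). With the rRNA share in the model the count was 5 of 20 in place of 11, and Hspb1, a small heat shock protein, lost its call (adjusted p = 0.1).

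Immediate early genes, switched on within minutes of a stimulus, were divided: 10 of 29 rose and 1 fell. None of the 29 was called against 10 months, where 0.145% of all genes were called higher and 0.152% lower. Egr1, a zinc-finger factor, was at 33.8, 83.4, 29.4, 38.4 and 105 CPM at 14 months, against 8.999, 11.1, 9.53, 14.1 and 23.1 CPM at 4 months (log2 fold change 2.12 ± 0.45, adjusted p = 0.00034). Egr2, its relative, was at 1.22, 3.85, 3.18, 2.79 and 4.7 CPM at 14 months, against 0.111, 0.338, 0.374, 0.492 and 1.04 CPM at 4 months (log2 fold change 2.74 ± 0.55, adjusted p = 0.00014). Egr3, another, was at 4.22, 10.3, 6.51, 8.9 and 8.14 CPM at 14 months, against 1.22, 2.3, 1.4, 2.11 and 3.86 CPM at 4 months (log2 fold change 1.79 ± 0.44, adjusted p = 0.002). None of the 3 overlapped between the ages. Gadd45b, a stress sensor, fell: 1.56, 1.49, 1.89, 1.39 and 1.55 CPM at 14 months, against 8.67, 11.3, 6.82, 3.09 and 2.08 CPM at 4 months (log2 fold change -2.02 ± 0.33, adjusted p = 6.5e-06). The number higher was 6 with the rRNA share in the model, 6 without 14-month-old mouse 2, 5 without 14-month-old mouse 5 and 5 without 4-month-old mouse 1.

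Genes of the cardiomyocyte's excitation and calcium cycle were lower. Of 23 tested calcium genes 13 fell and none rose (median -0.50), where 12.1% of all genes were called lower. Of 32 ion channel genes 16 fell and 3 rose. Against the mean of 8, 10 and 12 months 6 calcium and 4 channel genes were lower. These ages were unlike. Against 4 months, 7, 13 and 1 calcium genes and 8, 9 and 6 channel genes were lower at 8, 10 and 12 months. Of all 15129 genes, 922, 1218 and 488 were. In the comparison of 14 with 10 months, where 0.152% of all genes were called lower, 1 calcium and 0 channel genes were lower. Cacna1c, the L-type calcium channel, was at 366, 374, 399.9, 380.5 and 386 CPM at 14 months, against 627, 673, 650.3, 661 and 669.6 CPM at 4 months (log2 fold change -0.78 ± 0.10, adjusted p = 8.4e-08). Slc8a1, the sodium-calcium exchanger, was at 42.9, 43.5, 53.3, 45.6 and 31.7 CPM at 14 months, against 90.99, 74.2, 106, 90.4 and 54.9 CPM at 4 months (log2 fold change -0.94 ± 0.18, adjusted p = 7.9e-05). Ryr2, the release channel, was at 985, 815, 907, 875 and 637 CPM at 14 months, against 1197, 1122, 1408, 1252 and 1032 CPM at 4 months (log2 fold change -0.51 ± 0.13, adjusted p = 0.0024). These did not overlap between the ages, and values within an age were close for Cacna1c. Atp2a2, the pump that refills the store, did not pass: 10861, 11011, 11307, 11023 and 10679 CPM at 14 months, against 11740, 11885, 12349, 10724 and 12762 CPM at 4 months (log2 fold change -0.12 ± 0.08, adjusted p = 0.35); with the rRNA share in the model its adjusted p was 0.044. Among the signalling members, Adcy6, an adenylyl cyclase downstream of beta-adrenergic receptors, was at 104, 88.6, 109.5, 110.3 and 81.1 CPM at 14 months, against 183, 208, 184, 234 and 247 CPM at 4 months (log2 fold change -1.1 ± 0.13, adjusted p = 6.1e-09). Pde4d, which breaks down cAMP, was at 15.7, 13.7, 19.7, 17.7 and 14.8 CPM at 14 months, against 39.1, 36.4, 39.3, 43.5 and 33.05 CPM at 4 months (log2 fold change -1.23 ± 0.17, adjusted p = 3.6e-07). Adcy6 was lower than at 10 months as well (log2 fold change -0.56 ± 0.13, adjusted p = 0.03).

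Of the 17 potassium channel genes 9 fell and none rose. Kcnj2, the inward rectifier of the resting potential, was at 33.6, 15.2, 29.2, 24.1 and 15.3 CPM at 14 months, against 49.5, 41.1, 38.6, 36.7 and 34.8 CPM at 4 months (log2 fold change -0.77 ± 0.24, adjusted p = 0.013), but lost its call with the rRNA share in the model (adjusted p = 0.39) and without 14-month-old mice 2 or 5 (adjusted p = 0.055 and 0.054). Gja1, the main gap junction protein, went the other way: 619.9, 727, 784, 676 and 714 CPM at 14 months, against 459, 472, 464, 366 and 485 CPM at 4 months (log2 fold change 0.65 ± 0.10, adjusted p = 4.6e-06). With the rRNA share in the model 8 of the 32 channels were lower and 5 higher. Without 4-month-old mouse 5 the number higher was also 5.

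**Figure D3:**
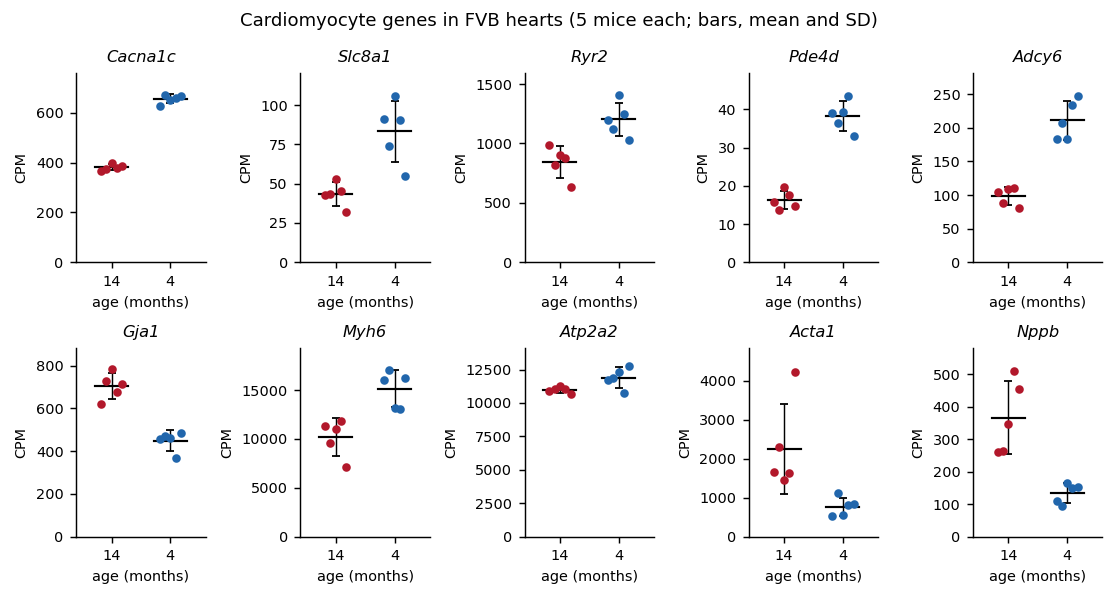
CPM of 10 cardiomyocyte genes in 5 mice of 14 months (red, left) and 5 of 4 months (blue, right); points are mice, bars the mean and SD, and axes start at 0. Cacna1c and Adcy6 are lower at 14 months in every mouse, Gja1, Acta1 and Nppb higher in every mouse.

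The foetal programme, genes of the developing heart that return under load, had 6 of 16 tested members higher and 2 lower. Over all genes 10.9% were called higher and 12.1% lower. Nppb, the B-type natriuretic peptide, was at 259.8, 265, 346, 509 and 454 CPM at 14 months, against 111, 93.2, 164, 149.8 and 154 CPM at 4 months (log2 fold change 1.45 ± 0.28, adjusted p = 0.00011). Acta1, the skeletal alpha-actin, was at 1664, 2290, 1445, 1628 and 4232 CPM at 14 months, against 539.8, 1107, 551, 804 and 825 CPM at 4 months (log2 fold change 1.56 ± 0.35, adjusted p = 0.00063). Nppa, the atrial peptide, was at 78.6, 42.99, 64.5, 94.04 and 110.3 CPM at 14 months, against 35.3, 43.01, 28.4, 45.2 and 65.5 CPM at 4 months and did not pass (log2 fold change 0.85 ± 0.36, adjusted p = 0.08). It passed under 5 alternatives with an adjusted p of 0.012 to 0.047, among them no filter on low counts (0.023), only the groups compared (0.029), and without 14-month-old mouse 2 (0.047) or 4-month-old mouse 5 (0.042). Myh7, the slow myosin heavy chain that is foetal in mice, was lower: 392, 407, 439, 521 and 677 CPM at 14 months, against 785, 757, 632, 738 and 744 CPM at 4 months (log2 fold change -0.59 ± 0.18, adjusted p = 0.013), lower than at 10 months too (log2 fold change -1.01 ± 0.18, adjusted p = 0.0027), but without a call once mouse 1 of both ages was left out (adjusted p = 0.080). Myosin genes that are near relatives can share reads. Its partner in the adult heart, Myh6, was at 11340, 9572, 10974, 11882 and 7078 CPM at 14 months, against 16055, 17101, 13210, 13016 and 16288 CPM at 4 months (log2 fold change -0.57 ± 0.15, adjusted p = 0.0029). With the rRNA share in the model Myh7 and Myh6 had no call (adjusted p = 0.25 and 0.15). Tcap, which caps titin, was at 288, 313, 245, 244 and 339 CPM at 14 months, against 595, 734, 372, 524 and 491 CPM at 4 months (log2 fold change -0.93 ± 0.17, adjusted p = 4.6e-05). Of 20 sarcomere genes 5 fell and none rose; the count was 3 without 4-month-old mouse 3.

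Fatty acid genes were lower in 17 of 48 cases and higher in none (median -0.25). Among their regulators, Ppara, the nuclear receptor that drives fat burning, was at 11.2, 8.14, 14.7, 12.3 and 7.26 CPM at 14 months, against 48.5, 49.2, 60.9, 68.8 and 52.2 CPM at 4 months (log2 fold change -2.39 ± 0.25, adjusted p = 1e-09). Ppargc1a, a coactivator of mitochondrial genes, was at 48.2, 32.8, 52.2, 52.1 and 35.2 CPM at 14 months, against 78.9, 77.4, 120.3, 164 and 85.2 CPM at 4 months (log2 fold change -1.26 ± 0.23, adjusted p = 4e-05). Acaa2, the last enzyme of a beta-oxidation cycle, was at 483, 583, 482, 447 and 557 CPM at 14 months, against 742, 718, 729, 650.3 and 854 CPM at 4 months (log2 fold change -0.53 ± 0.12, adjusted p = 0.00058). Cpt1b, the muscle form of the carnitine shuttle, did not pass the test, at 2.06, 1.58, 1.29, 2.15 and 1.89 CPM at 14 months, against 1.78, 2.57, 1.68, 2.18 and 2.71 CPM at 4 months (log2 fold change -0.29 ± 0.29, adjusted p = 0.52). In GENCODE its span lies within that of another gene, Gm44502, on the same strand, so its count is uncertain. Of 54 nuclear genes of oxidative phosphorylation 6 fell and 1 rose, and the lower count was close to the 12.1% of all genes called lower. With the rRNA share in the model, where 9.06% of all genes were called lower, 16 of the 54 were lower. The lower count was 2 to 7 when each mouse was left out in turn. It was 2 without 14-month-old mouse 3 and 3 without 14-month-old mouse 4 or 4-month-old mouse 5.

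Ppara was one of several lower genes whose level over the 5 ages moved in part with the rRNA share. Nt5c1a, an enzyme that releases adenosine from AMP, was at 1.06, 1.49, 2.04, 2.36 and 1.84 CPM at 14 months, against 26.9, 29.3, 24.96, 33.7 and 30.1 CPM at 4 months (log2 fold change -4.07 ± 0.41, adjusted p = 3.6e-10). Hipk2, a kinase of stress signalling, was at 25.6, 26.3, 36.2, 38.9 and 33.6 CPM at 14 months, against 226, 236, 190.1, 295 and 288 CPM at 4 months (log2 fold change -2.94 ± 0.24, adjusted p = 8.1e-13). Both were far apart between the ages. At 12 months, mouse 5 had an rRNA share of 0.50% and the other 4 mice of 2.34 to 3.95%; Nt5c1a was at 2.57 CPM in mouse 5 and at 23.8 to 25.7 CPM in the other 4, Hipk2 at 48.2 CPM against 199 to 220 CPM, and Ppara at 14.7 CPM against 42.1 to 53.4 CPM. Mice of like share differed between ages. Mouse 4 of 8 months (0.947%) had 15.6, 112 and 21.9 CPM of Nt5c1a, Hipk2 and Ppara. Mouse 3 of 10 months (0.933%) had 1.85, 43.5 and 10.8 CPM. At 10 months, the age whose share was as low as at 14 months, Nt5c1a averaged 2.79 CPM. It did not pass the test against 14 months (log2 fold change -0.73 ± 0.45, adjusted p = 0.73). With the share in the model the change from 4 months was -2.98 for Nt5c1a, -2.40 for Hipk2 and -1.92 for Ppara, all still called. Against the mean of 8, 10 and 12 months, the further genes with the largest lower values were Carmn, a non-coding RNA of smooth and heart muscle (log2 fold change -1.60 ± 0.24, adjusted p = 2.9e-05), Slc26a1, a sulphate transporter (log2 fold change -1.36 ± 0.32, adjusted p = 0.0054), Adamts15, a matrix protease (log2 fold change -1.19 ± 0.21, adjusted p = 0.00027), and Hif1an, a hydroxylase that restrains HIF1 (log2 fold change -1.18 ± 0.16, adjusted p = 3.8e-06). All 4 were lower against 4 months as well, and with the rRNA share in the model Slc26a1 missed the threshold (adjusted p = 0.06). Of the 413 lower DEGs, 110 had a called slope on the share, 106 of them positive. Of the 434 higher DEGs 24 had one, 6 positive and 18 negative. Over all 15129 genes tested, 1831 had a called slope, 962 of them positive.

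**Figure D4:**
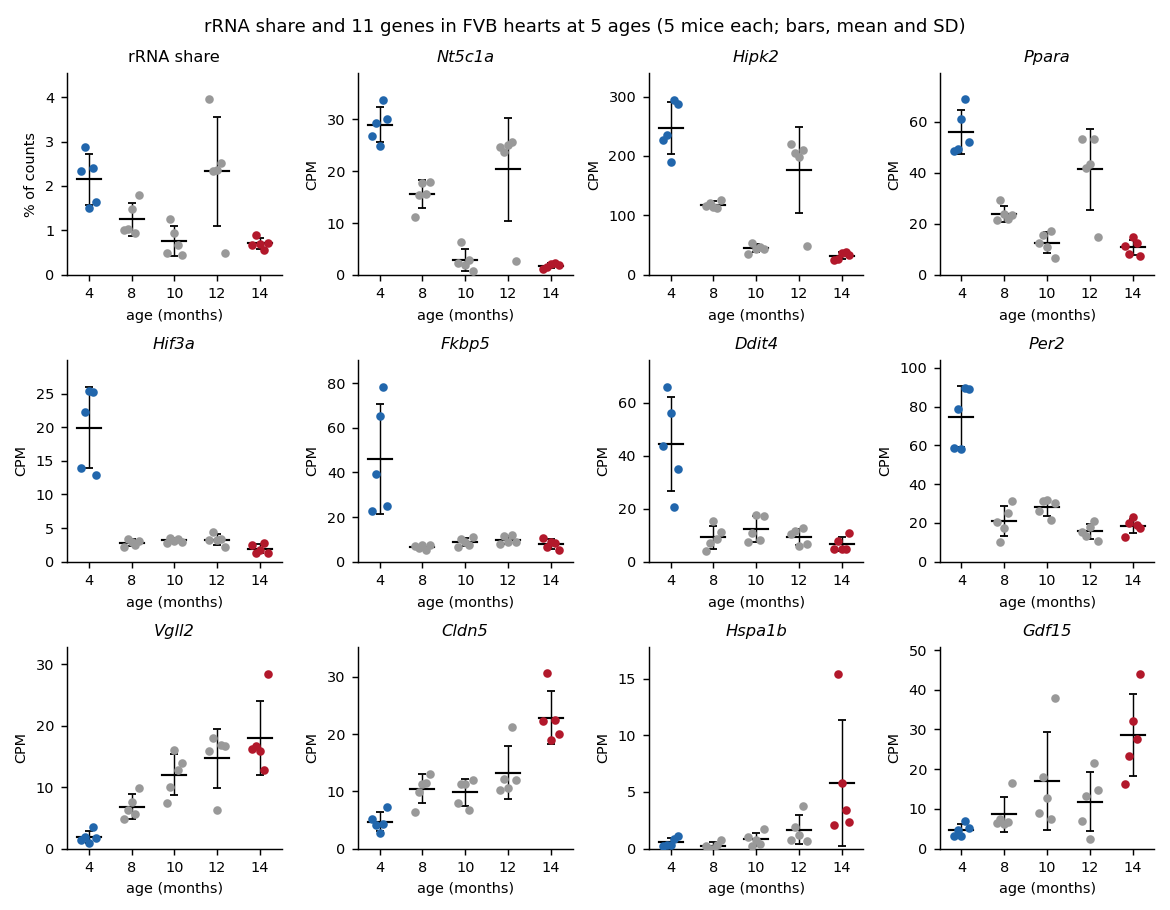
rRNA share (% of counts) and CPM of 11 genes in 5 FVB mice at each of 5 ages (4 months blue, 14 months red, other ages grey; bars, mean and SD). Nt5c1a, Hipk2 and Ppara follow the share over the ages, down to mouse 5 of 12 months, while Hif3a, Fkbp5, Ddit4 and Per2 are high at 4 months only.

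Glucocorticoid-responsive genes had the lowest median of the 50 lists, -0.92: 19 of 32 tested fell and 1 rose. Hif3a, an inhibitor of the hypoxia response, was at 2.5, 1.31, 1.74, 2.79 and 1.26 CPM at 14 months, against 14, 22.3, 25.3, 25.2 and 12.9 CPM at 4 months (log2 fold change -3.40 ± 0.35, adjusted p = 6.8e-10). Ddit4, which restrains mTORC1, was at 4.67, 7.79, 4.62, 4.83 and 10.7 CPM at 14 months, against 43.7, 65.97, 55.99, 20.6 and 34.9 CPM at 4 months (log2 fold change -2.74 ± 0.38, adjusted p = 3e-07). Fam107a, an actin-binding stress protein, was at 10, 5.08, 5.68, 5.9 and 5.18 CPM at 14 months, against 33.7, 43.01, 57.2, 47.3 and 29.2 CPM at 4 months (log2 fold change -2.71 ± 0.40, adjusted p = 1.1e-06). Each was without overlap, and the 4-month-old mice were the high side. Map3k6, a stress kinase outside the list, was at 7.83, 7.27, 5.52, 6.005 and 7.94 CPM at 14 months, against 24.9, 44.6, 49.3, 54.2 and 32.01 CPM at 4 months (log2 fold change -2.56 ± 0.33, adjusted p = 7.9e-08). Zbtb16, a transcription factor of the list, was at 85.2, 54.1, 59.7, 53.2 and 34.3 CPM at 14 months, against 158, 166, 213, 288 and 234 CPM at 4 months (log2 fold change -1.89 ± 0.29, adjusted p = 2.3e-06). Set against the middle ages (8, 10 and 12 months), 1 of the 32 was lower, with a median of -0.08. The medians at 8, 10 and 12 against 4 months, which share their 4-month-old mice with the comparison, were -0.94, -0.84 and -0.91. With the rRNA share in the model 19 of the 32 were lower. Timp4, a heart-rich inhibitor of matrix proteases, had 11.1, 7.79, 8.17, 9.22 and 9.49 CPM at 14 months, against 32.7, 37.3, 52.8, 47.9 and 40.97 CPM at 4 months (log2 fold change -2.20 ± 0.33, adjusted p = 1.6e-06).

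The clock genes, which keep the daily rhythm and are themselves touched by glucocorticoids, had 4 of 21 higher and 9 lower. Per2, of the repressing limb, was at 12.6, 19.96, 22.9, 19.1 and 17.5 CPM at 14 months, against 58.5, 78.7, 58.2, 89.5 and 89.2 CPM at 4 months (log2 fold change -2.03 ± 0.34, adjusted p = 9.7e-06). Nr1d1, which represses Arntl, was at 121, 116, 149, 155 and 237 CPM at 14 months, against 48.9, 51.5, 31.9, 53.3 and 55.1 CPM at 4 months (log2 fold change 1.69 ± 0.30, adjusted p = 3.1e-05). Npas2, of the activating limb, was at 22.2, 16.5, 13.8, 13.5 and 12.8 CPM at 14 months, against 7.11, 4.86, 5.51, 4.22 and 5.32 CPM at 4 months (log2 fold change 1.56 ± 0.31, adjusted p = 0.00017). Arntl, its partner, was at 20.8, 20.4, 15.7, 17.7 and 17.5 CPM at 14 months, against 10.7, 6.89, 11.03, 5.41 and 8.76 CPM at 4 months (log2 fold change 1.13 ± 0.29, adjusted p = 0.0028). None of these 4 overlapped. Dbp, an output gene, did not pass: 35.6, 35.6, 35.8, 41.2 and 55.7 CPM at 14 months, against 32.1, 58.4, 19.4, 41.8 and 35.03 CPM at 4 months (log2 fold change 0.12 ± 0.32, adjusted p = 0.83). The activating Npas2 and Arntl and the repressor Nr1d1 were higher, and Per2 was lower. Against the mean of the middle ages none of the 21 passed, while against 10 months Npas2 was higher (log2 fold change 1.26 ± 0.30, adjusted p = 0.045) and Cry2, a repressor named after its values were seen, lower (log2 fold change -0.60 ± 0.12, adjusted p = 0.0096). Against 4 months Cry2 was lower as well (log2 fold change -0.37 ± 0.12, adjusted p = 0.022), but without a call under 9 alternatives (adjusted p = 0.058 to 0.093), among them each of 14-month-old mice 1, 2 and 3 and 4-month-old mice 2, 4 and 5 left out. The hour of death is not given, so hour and age cannot be told apart for these genes.

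Matrix genes were higher in part. Of 50 interstitial matrix genes 22 rose and 3 fell (median 0.51). Against the mean of 8, 10 and 12 months, with 2.51% of all genes called higher, 4 of the 50 were higher. Against 10 months, with 0.145% called, 1 was. The values that follow are against 4 months. Col3a1 and Col1a1, the fibril-forming chains, rose: Col3a1 was at 149.5, 145, 143, 125 and 129 CPM at 14 months, against 76.2, 83.8, 39.6, 42.2 and 52.02 CPM at 4 months (log2 fold change 1.23 ± 0.26, adjusted p = 0.00029). Col1a1 was at 153, 198, 159, 169 and 275 CPM at 14 months, against 81.99, 126, 41.4, 70.4 and 131 CPM at 4 months (log2 fold change 1.08 ± 0.28, adjusted p = 0.0032). Col1a2, the partner chain of Col1a1, was at 122, 147, 132, 131 and 161 CPM at 14 months, against 98.9, 124, 65.7, 85.2 and 138 CPM at 4 months and did not pass (log2 fold change 0.43 ± 0.19, adjusted p = 0.094), though it did under 2 alternatives, 1 of them without 4-month-old mouse 5 (adjusted p = 0.033). Col3a1 and Col1a1 did not overlap between the ages and Col1a2 did. Among enzymes of cross-linking, Loxl1 was at 46.5, 58.2, 47.2, 49.4 and 76.5 CPM at 14 months, against 25.1, 32.6, 18.4, 22.7 and 48.4 CPM at 4 months (log2 fold change 0.92 ± 0.23, adjusted p = 0.0026). Lox was at 1.56, 1.66, 1.36, 1.5 and 0.92 CPM at 14 months, against 1.44, 1.22, 1.68, 2.04 and 1.35 CPM at 4 months (log2 fold change -0.18 ± 0.32, adjusted p = 0.75). Only Loxl1 of this pair passed the test. Eln, elastin, was at 4.95, 7.27, 4.77, 4.61 and 7.26 CPM at 14 months, against 7.89, 10.4, 8.69, 9.13 and 11.6 CPM at 4 months (log2 fold change -0.72 ± 0.20, adjusted p = 0.0063) and lost its call with the rRNA share in the model (adjusted p = 0.24), as did the other 2 lower matrix genes. Activated fibroblast markers rose in 4 of 8 cases, among them Cilp, a matrix protein of fibrosis: 6.11, 4.55, 5.83, 3.43 and 4.36 CPM at 14 months, against 2, 1.76, 1.03, 1.76 and 2.5 CPM at 4 months (log2 fold change 1.45 ± 0.35, adjusted p = 0.0014). Cilp did not overlap between the ages, but did not pass against the mean of 8, 10 and 12 months (log2 fold change -0.0016, adjusted p = 0.998). Itga11, a collagen receptor of fibroblasts, was at 11.3, 13.8, 14.4, 11.5 and 14.9 CPM at 14 months, against 5.22, 6.82, 3.83, 6.04 and 9.17 CPM at 4 months (log2 fold change 1.08 ± 0.21, adjusted p = 9.3e-05). Sfrp2, a secreted modulator of Wnt, was at 1.83, 1.93, 1.36, 2.04 and 4.17 CPM at 14 months, against 1.78, 0.743, 0.561, 1.12 and 0.417 CPM at 4 months (log2 fold change 1.35 ± 0.31, adjusted p = 0.00084). The activated fibroblast list summed to 91.3 to 108 CPM at 14 months and 48.2 to 66.8 CPM at 4 months, without overlap. Of 10 general fibroblast markers 2 rose, with a median of 0.09. Their sums overlapped, at 2507 to 3057 CPM at 14 months and 2438 to 2816 CPM at 4 months.

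The basement membrane moved in both directions. Col4a1, a type IV collagen chain, was at 342, 330.4, 329, 394 and 454 CPM at 14 months, against 178, 190.1, 176, 223 and 315 CPM at 4 months (log2 fold change 0.77 ± 0.19, adjusted p = 0.002). Lama5, a laminin, was at 154, 139.8, 148, 176 and 178 CPM at 14 months, against 223, 307, 193, 293 and 361 CPM at 4 months (log2 fold change -0.79 ± 0.14, adjusted p = 3.8e-05). Nid1, which links the networks, was at 154, 128, 176, 150.1 and 124 CPM at 14 months, against 225, 236, 236, 241 and 263 CPM at 4 months (log2 fold change -0.72 ± 0.12, adjusted p = 1.5e-05). Of the 16 genes 3 rose, all type IV collagens, and 4 fell, 3 of them laminins, beside 10.9% and 12.1% of all genes. The median of the 16 was 0.02, and none was a DEG. Proteases and their inhibitors did likewise: Mmp14, a membrane-bound collagenase, was at 33.6, 38.7, 34.5, 38.6 and 56.95 CPM at 14 months, against 13.3, 16.8, 12.3, 13.8 and 21.2 CPM at 4 months (log2 fold change 1.39 ± 0.19, adjusted p = 3e-07). Timp1, an inhibitor, was at 3.61, 3.06, 4.46, 5.15 and 3.63 CPM at 14 months, against 1.44, 1.62, 1.31, 1.48 and 1.25 CPM at 4 months (log2 fold change 1.45 ± 0.37, adjusted p = 0.0026). Timp3, another inhibitor, was at 75.1, 64.01, 79.99, 68.4 and 41.5 CPM at 14 months, against 185, 195, 204, 236 and 176 CPM at 4 months (log2 fold change -1.60 ± 0.20, adjusted p = 2.2e-08). Mmp14 and Timp1 were higher and Timp3 lower, each without overlap. Without 14-month-old mouse 5 or 4-month-old mouse 3, 4 of the 21 genes of this list rose in place of 7. In Wnt signalling, which shapes fibrosis and vessels, 10 of 25 rose and 5 fell, 2 with the rRNA share in the model. Wif1, a secreted Wnt trap, was at 34.7, 37.7, 38.1, 40 and 51 CPM at 14 months, against 13.6, 20.1, 18.6, 17.5 and 16.6 CPM at 4 months (log2 fold change 1.22 ± 0.20, adjusted p = 9e-06). Fzd4, a receptor, was at 65.3, 52.6, 62.96, 59.6 and 48.8 CPM at 14 months, against 149.8, 139, 166, 123 and 94.7 CPM at 4 months (log2 fold change -1.22 ± 0.15, adjusted p = 3e-08).

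Vessels gave a mixed picture. Cldn5, the tight junction protein of endothelium, was at 22.2, 30.6, 19, 22.5 and 20.1 CPM at 14 months, against 5.11, 4.05, 2.71, 4.29 and 7.3 CPM at 4 months (log2 fold change 2.30 ± 0.27, adjusted p = 6.4e-09), higher than at 10 months (log2 fold change 1.21 ± 0.24, adjusted p = 0.0096) and than the mean of the middle ages (log2 fold change 1.04 ± 0.19, adjusted p = 0.00027). Aplnr, the apelin receptor, was at 86.5, 62.9, 78.7, 67.9 and 65.04 CPM at 14 months, against 42, 43.1, 17.3, 24.5 and 41.9 CPM at 4 months (log2 fold change 1.1 ± 0.23, adjusted p = 0.00028). Flt1, a VEGF receptor, was at 106, 88.2, 112, 99.3 and 71.05 CPM at 14 months, against 143, 185, 197, 217 and 183 CPM at 4 months (log2 fold change -0.96 ± 0.11, adjusted p = 1.2e-08). Cldn5 and Aplnr were higher and Flt1 lower in every 14-month-old mouse. Of 12 endothelial markers 2 rose and 1 fell, beside 10.9% and 12.1% of all genes, with a median of 0.11. Their summed level was 1988 to 2145 CPM at 14 months and 2177 to 2679 CPM at 4 months. The lower sum was thus not shared by the typical marker. Vgll2, a cofactor of TEAD factors, which is known from skeletal muscle, was at 16.2, 16.7, 15.8, 12.8 and 28.5 CPM at 14 months, against 1.33, 1.82, 0.841, 3.51 and 1.77 CPM at 4 months (log2 fold change 3.23 ± 0.32, adjusted p = 2.1e-10), and its means over 8, 10 and 12 months were 6.85, 12.1 and 14.7 CPM. Gdf15, a stress cytokine, was at 16.2, 23.4, 32.01, 27.6 and 44.1 CPM at 14 months, against 3.11, 4.59, 3.18, 6.89 and 5.21 CPM at 4 months (log2 fold change 2.62 ± 0.43, adjusted p = 7.7e-06). Neither overlapped. Trp53, the p53 tumour suppressor, was at 51.7, 64.97, 54.9, 56.7 and 77.05 CPM at 14 months, against 24.8, 27.4, 20.2, 22.7 and 33.3 CPM at 4 months (log2 fold change 1.25 ± 0.13, adjusted p = 7.9e-10). Cdkn1a, a cell cycle inhibitor that p53 and glucocorticoids raise, was at 28.9, 31.4, 33.4, 35.1 and 42.4 CPM at 14 months, against 72.3, 58.7, 139.5, 118 and 69.02 CPM at 4 months (log2 fold change -1.42 ± 0.32, adjusted p = 0.00069).

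The change from 4 to 14 months was not the same in Tgαq*44 mice for many of these genes. The difference of the 2 changes passed the adjusted p in 2384 genes (15.8%). On the log2 scale, Igtp changed by -1.90 in Tgαq*44 mice against 3.02 in FVB mice (adjusted p of the difference 8.4e-05), Fkbp5 by 1.98 against -2.56 (3.7e-09), and Gadd45b by 0.89 against -2.02 (5.4e-06). In C4b, 1.86 against 1.98, no difference was detected (adjusted p = 0.84).

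**Figure D5:**
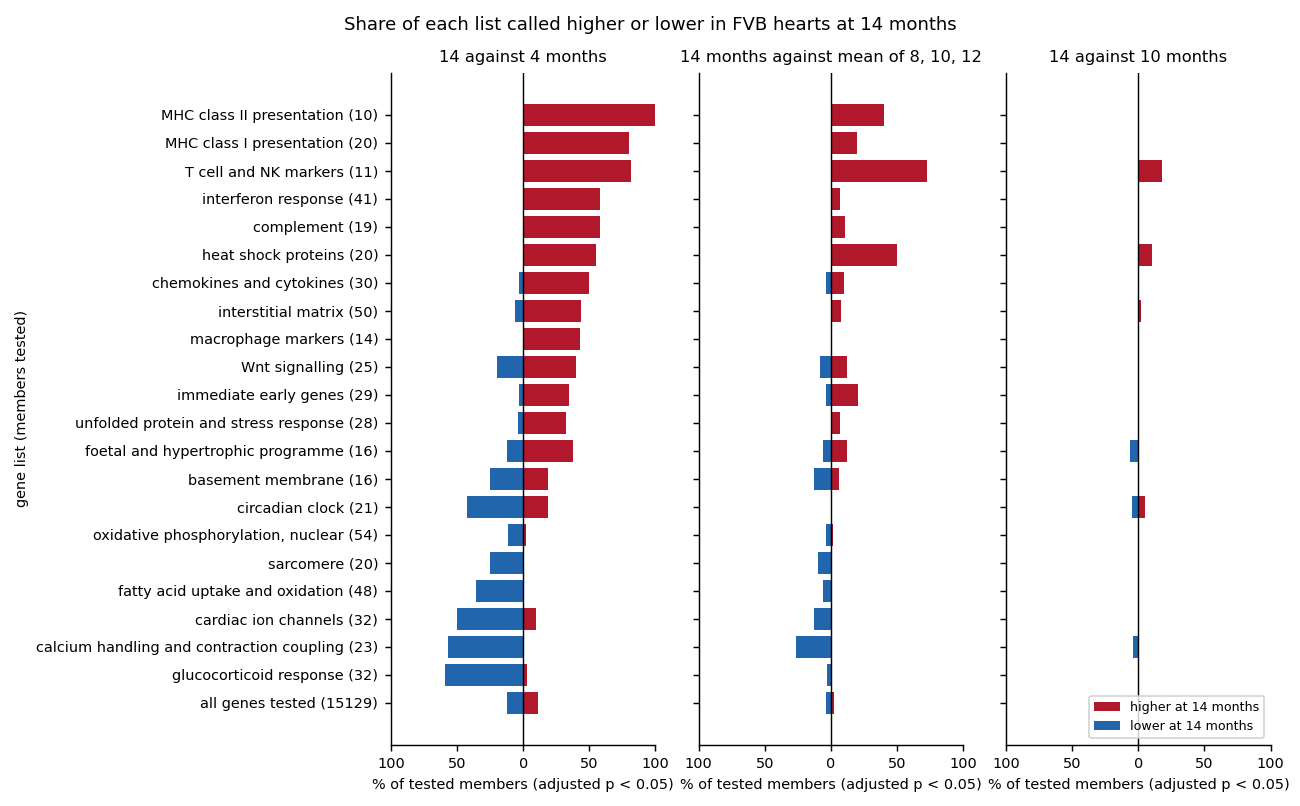
Share of tested members called higher (red, right) or lower (blue, left) at 14 months in 21 gene lists and in all genes, for 14 against 4 months, against the mean of 8, 10 and 12 months, and against 10 months (adjusted p under 0.05). The glucocorticoid bar (19 of 32 lower) is nearly gone in the second panel (1 of 32), while T cell and NK markers (8 of 11) and heat shock genes (10 of 20) keep theirs there but not in the third panel (2 of 11 and 2 of 20).

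The remaining pathways had members in both directions or few called. In TGF-beta and fibroblast growth signalling 5 of 19 genes rose and 3 fell. In the unfolded protein response 9 of 28 rose and 1 fell, and in the antioxidant list 4 of 24 rose and 2 fell. Among senescence genes 3 of 17 rose and 3 fell, and in proliferation 2 of 27 rose. Over all genes 10.9% were called higher and 12.1% lower, so counts near those shares are no result about a list. Leaving out 14-month-old mouse 2 gave 3 TGF-beta genes higher. In the antioxidant list 8 rose without 4-month-old mouse 5. For senescence genes 5 were higher without 4-month-old mouse 3. With the rRNA share in the model 6 were, where 8.39% of all genes were called higher. Of the 10 tested mitochondrially encoded genes 2 fell, and 9 with the rRNA share in the model, where 9.06% of all genes were called lower. Adipocyte markers summed to 95.4 to 108 CPM at 14 months and 207 to 248 CPM at 4 months, without overlap. Of the 7 tested 2 fell, and 1 was lower without overlap, beside 7.88% of all genes. Their median log2 fold change was 0.03, so the lower sum was not shared by the typical marker. Of the red blood cell markers none of 5 tested passed. The 1 neutrophil marker tested, Csf3r, a growth factor receptor of granulocytes, was at 2.33, 3.94, 2.35, 3.002 and 4.12 CPM at 14 months, against 2.33, 1.76, 2.43, 1.83 and 1.77 CPM at 4 months (log2 fold change 0.65 ± 0.21, adjusted p = 0.02), and lost its call under 6 alternatives (adjusted p = 0.054 to 0.14, the highest with the rRNA share in the model, and 0.064, 0.094, 0.056 and 0.054 without 14-month-old mice 2 and 5 and 4-month-old mice 2 and 4). Of 3 mast cell markers tested 1 rose, Kit, the receptor of stem cell factor: 7.39, 7.53, 8.17, 7.93 and 10.1 CPM at 14 months, against 5.999, 4.79, 3.46, 4.5 and 6.05 CPM at 4 months (log2 fold change 0.74 ± 0.16, adjusted p = 0.00033). Csf3r and Kit were named after their values were seen.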

How the data were processed

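Apical left ventricle of female mice was processed with TRIzol and RNeasy columns with DNase, and polyA-selected libraries (Sense mRNA-Seq v2) were sequenced on a NextSeq in several runs. After trimming (cutadapt) and quality control (FastQC), the authors aligned the reads to GRCm38.p6 (STAR) and counted them on exons (HTSeq); the deposited unit is the raw count per gene. Whether counting used strand is not given in the sources used here, so antisense and overlapping genes, and near-identical copies, are uncertain. The authors' tables of fold changes, p-values and gene processes were not used. Gene IDs were matched to GENCODE M21 (54495 of 54532).

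Genes that exceeded 0.5 CPM in more than 3 mice of any group were fitted in edgeR 4.0.16 (R 4.3.3; TMM factors, quasi-likelihood F-test) in 1 model of 10 strain and age groups, 50 mice, with Benjamini-Hochberg adjustment over 15129 genes. The standard error is the absolute log2 fold change over the square root of F. CPM values use library sizes scaled by the TMM factors. Members of a list were called at an adjusted p under 0.05. Library measures were compared by two-sided exact permutation tests. Alternatives were limma-voom (limma 3.58.1), DESeq2 1.42.0, other factors and filters, fewer groups, the omission of single mice, a block for the mouse number and, added after the data were seen, the rRNA share as a covariate, mouse 1 of both ages left out, and 10 months as the comparison. Scripts were tested on simulated data. Promoters (250 bases before to 50 after the start) are from RefSeq. The genes named were the 12 largest non-overlapping DEGs each way with a mean of at least 1 CPM, the 8 most abundant each way, the 8 largest each way against the mean of 8, 10 and 12 months, genes the study names for cardiac ageing, and list members with large or small changes of their role. Some genes that these rules name are not reported here. The genes and lists were chosen with earlier results of these data known. p-values measure the spread between the mice of these groups. Libraries of the 10 mice held 9479003 to 21601942 counts, and genes with few reads are the least precise.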

Additional observations from a re-analysis of the deposited data

Results flagged for a closer look

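In 22 of 254 groups of 5 mice, 1 mouse stood apart: its gap to the nearest other mouse, divided by the range of the group, was above the 95% critical value of Dixon's test. Chance alone gives about 1 in 20 such groups. Mouse 1 was the highest for Igha at 4 months (0.732), Ccl8 at 4 months (0.725), Fam107a at 14 months (0.834), Igtp at 4 months (0.895), Irgm2 at 4 months (0.801), Rsad2 at 14 months (0.858), Rsad2 at 4 months (0.934) and the haemoglobin share at 14 months (0.794). Mouse 1 was the lowest for Ciita at 14 months (0.815). Another mouse was the highest for Hspa1b at 14 months (mouse 2, 0.726), Vgll2 at 14 months (mouse 5, 0.748), Il1b at 14 months (mouse 4, 0.761), Il1b at 4 months (mouse 4, 0.767), Angptl7 at 14 months (mouse 3, 0.73), Sfrp2 at 14 months (mouse 5, 0.759), Tnf at 4 months (mouse 5, 0.784), Cd4 at 14 months (mouse 4, 0.772), Igkc at 4 months (mouse 3, 0.776), Mmp14 at 14 months (mouse 5, 0.782) and Dbp at 14 months (mouse 5, 0.721). Another mouse was the lowest for Gja1 at 4 months (mouse 4, 0.78) and Nr1d1 at 4 months (mouse 3, 0.731).

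The change between 14 and 4 months differed between Tgαq*44 mice and FVB mice in 69 of the 121 genes named (edgeR, adjusted p under 0.05 for the difference of the changes, where 15.8% of all genes tested passed). Many of these genes were named for a large FVB change, which enters the difference with its sign reversed. This choice alone can raise the share and set the sign, so 69 of 121 cannot be compared with the 15.8%. The values that follow are the log2 change in Tgαq*44 mice minus the log2 change in FVB mice. The difference was negative in 34 genes, Apol9a (-4.29), Igha (-2.74), Ccl7 (-5.61), Ccl8 (-2.62), Il1b (-4.44), Cxcr3 (-1.87), B2m (-1.24), Cd74 (-2.73), H2-K1 (-1.35), Egr3 (-1.81), H2-Ab1 (-2.64), H2-DMb1 (-3.07), Ciita (-2.20), Psmb8 (-1.82), Igtp (-4.92), Irgm2 (-3.55), Ifit1 (-1.69), Cxcl10 (-4.82), Tnf (-3.84), Cd8a (-3.64), Trac (-3.09), Fcgr1 (-2.04), Xcr1 (-2.99), Hsph1 (-1.18), Hspd1 (-0.889), Egr1 (-2.72), Col3a1 (-1.36), Acaa2 (-0.99), Atp2a2 (-0.502), Gja1 (-0.67), Trp53 (-0.739), Cldn5 (-1.83), Aplnr (-1.92) and Kit (-1.11). It was positive in 35 genes, Vgll2 (1.74), Nt5c1a (2.40), Hif3a (4.28), Hipk2 (2.03), Ddit4 (4.57), Fam107a (4.76), Map3k6 (4.29), Fkbp5 (4.53), Ucn (2.11), Ppara (1.05), Lvrn (3.16), Angptl7 (3.68), Tacc2 (0.829), 2610507B11Rik (0.87), Mt1 (1.59), Hif1an (1.14), Cdkn1a (3.71), Cilp (2.06), Gadd45b (2.90), Eln (1.29), Lox (1.31), Lama5 (0.692), Nid1 (0.648), Timp3 (1.91), Timp4 (2.96), Fzd4 (1.21), Cacna1c (0.527), Pde4d (0.834), Adcy6 (0.548), Myh7 (2.05), Nppa (2.13), Tcap (0.691), Per2 (1.92), Zbtb16 (2.58) and Flt1 (0.96).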

How the results depend on the processing

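The 847 DEGs of 14 against 4 months numbered 778 to 964 under DESeq2 (857), limma-voom (847), other factors, other filters (964 with none) and fewer groups, 755 to 906 when each mouse was left out (395 to 477 higher, 359 to 444 lower) and 671 with the rRNA share in the model, where 269 were lower. With no minimum of the fold change the counts were 3474, 1647 higher and 1827 lower, and for the strain difference 2384, 1288 and 1096 in place of 1015, 513 and 502 with the minimum; with it, leaving out each FVB mouse gave 897 to 1064. Against the mean of 8, 10 and 12 months, 110 DEGs (53 higher, 57 lower) became 978 (380 and 598) with no minimum, 18 (14 and 4) against 10 months alone, and 52, of which 16 were lower, with the rRNA share. There were 81 higher with no filter on low counts, and over the mice left out 77 to 145 in all, 38 to 88 higher (88 without 14-month-old mouse 1) and 37 to 77 lower (37 without 14-month-old mouse 2). With each mouse left out, the 14-month minus 4-month difference was 332118 to 3362853 in total counts, 420.8 to 1017 in genes detected, -2.89 to -0.556 percentage points in the mitochondrial share, 0.0074 to 0.0709 in the haemoglobin share, -1.61 to -1.26 in the rRNA share and 0.0658 to 0.0814 in the TMM factor. Of 2419 values of the 121 named genes under an alternative, 2371 kept their call, 32 lost it, 16 gained one and none reversed; 11 genes lost a call with the rRNA share, and of the list counts 808 of 860 were within 1.5 times. The mouse number as a replicate block gave 875 DEGs, 124 and 1049 for the 3 comparisons. With it Nppa, Col1a2 and Cd163 gained a call (adjusted p = 0.012, 0.044 and 0.027). The correlations of same-numbered mice were 0.103, 0.163, 0.316, 0.0865 and 0.547, and 3 of 5 correlated best with their own number. Whether same-numbered mice share more than a number was not tested. Depth limits genes with few reads, such as Apol9a, Tnf, Il1b and Cd8a. The cause of the changes with the rRNA share was not tested.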
